A study of Mus musculus with 4 samples.

Results

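The IL-6 family cytokines are small secreted proteins that act through shared receptor chains, and 10 of their genes were followed here in adult bone marrow mesenchymal stromal cells (MSCs): the ligands Il6, Il11, Lif, Osm and Clcf1 and the receptors Il6st, Il6ra, Il11ra1, Lifr and Osmr. The members were chosen by name, and all 10 are among the 56980 genes of the count table. The libraries come from 4 wild-type male C57BL/6J mice aged 14 weeks, of a colony inbred in-house for 30 years, with no other allele and no treatment, and the labels call the mice young. From each mouse 100 bone marrow cells were sorted by flow cytometry as CD45- Ter119- CD31- CD51+ PDGFRa+ Sca1-, and full-length cDNA of their polyadenylated RNA was amplified and sequenced. All 4 libraries belong to 1 group, so the comparisons below are between genes within a mouse, and the spread is between mice.

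Nearly all cytokines of this family signal through gp130, the product of Il6st, which does not bind most of them by itself, and IL-31 is an exception. IL-6 and IL-11 first bind their own receptor chains, encoded by Il6ra and Il11ra1, and the complex then joins gp130 to itself. LIF joins gp130 to the LIF receptor, OSM in the mouse joins it mainly to the OSM receptor, and CLCF1 needs the chain encoded by Cntfr together with the LIF receptor and gp130. The joined chains activate JAK kinases and STAT3, and SOCS3 then shuts the signal off. In bone these cytokines are known to act on cells of the osteoblast lineage, and OSM is known as a product of macrophages, neutrophils and T cells.

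The depth was 22738604 to 43545349 counts per library, and 16109 to 18907 genes had at least 1 count. Levels are given as TPM, the count divided by the length of the merged exons and scaled to a sum of 1000000 per library, so that genes of different length can be compared. Expressed means here a median above 1 TPM over the 4 mice. The lowest level that could be told from 0 was set at 3 counts, which covers counting error only, since PCR copies were not told apart from separate molecules. The sort antigens Itgav and Pdgfra were above 1 TPM in every mouse. Among the antigens sorted against, Ptprc and Pecam1 stayed at or below 0.264 TPM, whereas Ly6a, the gene of Sca1, had 120 and 144 counts in mice 2 and 4, which is 8.95 and 11.6 TPM, and at most 1 count in mice 1 and 3. All 5 stromal niche markers and all 4 osteoblast markers were above 1 TPM in every mouse, beside 30.1% of the protein-coding genes. The osteoblast markers summed to between 38901 and 44359 TPM. Fewer cells of a type and less RNA per cell cannot be told apart in such libraries.

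By their mean level, all receptors but Il6ra lay above the ligands of the family. Of the 5 receptors, 4 were expressed (Lifr, Il6st, Osmr and Il11ra1), and of the 5 ligands 0 were. Lifr alone had 78689 of the 92496 counts that fell on the 10 members in all 4 libraries together, while the 5 ligands together had 4 counts. Thus 4 of the 10 members passed the cutoff, beside 44.2% of the protein-coding genes with a length. Lifr, Il6st and Osmr, 3 of the 10, exceeded 1 TPM in all 4 mice, beside 30.1% of those genes. The number of expressed members is near this background, and the split between receptors and ligands is given as a description.

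**Figure D1:**
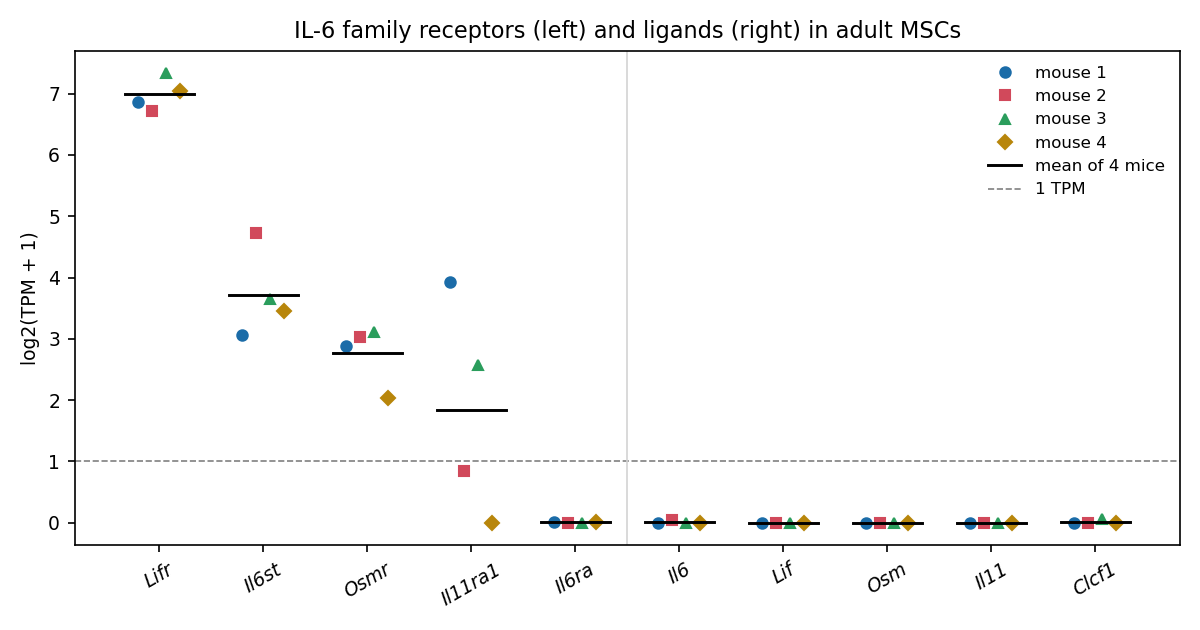
Level of each IL-6 family member in log2(TPM + 1) (vertical axis) for the 5 receptors and the 5 ligands (horizontal axis). Each symbol is 1 mouse, the black bar is the mean of the 4 mice and the dashed line marks 1 TPM. Lifr, Il6st and Osmr lie above the line in every mouse, Il11ra1 in mice 1 and 3, and all ligands lie at or near 0.

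Lifr encodes the signal-transducing chain shared by LIF, cardiotrophin and CLCF1. The gene (ENSMUSG00000054263) lies on the plus strand of chromosome 15 from 7090614 to 7197489 in GRCm38. It had 21769, 12472, 29839 and 14609 counts in mice 1 to 4, or 115, 104, 160.2 and 131 TPM. This is 128 ± 24.5 TPM (mean ± SD, n = 4), with the highest mouse 1.54 times the lowest. The median of 123 TPM was above that of 96.5% of the protein-coding genes. Its spread between mice was ordinary for its level. The coefficient of variation was 19.2%, where the median among 911 genes of similar level (mean of 100 to 1000 TPM) was 23.5% and 35.7% of them varied less than Lifr. Counting error alone gives 0.713%. In every mouse it was above Pdgfra, the gene of a receptor the cells were sorted for, by 2.16 to 5.22 times. The annotation lists 6 protein-coding Lifr transcripts, of 1092 codons in 3 of them, 719 codons in 2 and 140 codons in 1. A secreted LIF receptor that lacks the membrane anchor is known in the mouse, and counts per gene do not separate such short forms from the full one.

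Il6st, the gp130 gene (ENSMUSG00000021756; GRCm38 chromosome 13, from 112464070 to 112510086, plus strand), was expressed at a lower level. It had 1437, 3130, 2226 and 1143 counts in mice 1 to 4, or 7.36, 25.3, 11.6 and 9.97 TPM, a mean of 13.6 ± 8.05 TPM (SD, n = 4). Mouse 2 was the highest by a wide margin and the other mice lay close together. The coefficient of variation was 59.3%, against a median of 42.4% among 4673 genes of similar level (mean of 10 to 100 TPM), of which 69.7% varied less than Il6st. Without mouse 2 the mean was 9.64 TPM. The summed stromal niche markers (Cxcl12, Lepr, Kitl, Prrx1 and Ebf3) were also highest in mouse 2, at 4599 TPM, against 1050, 2367 and 1217 TPM in mice 1, 3 and 4. Cxcl12 made up most of this sum, at 4329 TPM in mouse 2. Lepr, Kitl and Ebf3 were likewise highest in mouse 2, whereas Prrx1 was lowest there, at 10.6 TPM. The part of these markers in the level of Il6st was not tested.

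Osmr encodes the second signalling chain of the mouse OSM receptor. It lies beside Lifr on chromosome 15, on the minus strand from 6813577 to 6874969 in GRCm38 (ENSMUSG00000022146). It had 1355, 972, 1607 and 386 counts in mice 1 to 4, corresponding to 6.36, 7.21, 7.68 and 3.08 TPM and to a mean of 6.08 ± 2.07 TPM (SD, n = 4). Mouse 4 had the lowest level and the other mice differed little. Its coefficient of variation was 34.1%. The 8584 genes of similar level (mean of 1 to 10 TPM) had a median of 89.6%, and 12.1% of them varied less than Osmr. The level depends on the gene length. The merged exons of Osmr span 12113 bases and its longest transcript 5491 bases, and with the length of the longest transcript in each gene the mean was 10.5 TPM.

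Il11ra1, which encodes the chain that binds IL-11, differed most between mice among the expressed members. The gene (ENSMUSG00000073889) occupies the plus strand of chromosome 4 between 41699989 and 41769474 in GRCm38. Mice 1 to 4 gave 1122, 40, 383 and 0 counts of it, or 14.3, 0.804, 4.96 and 0 TPM. In mouse 4 a level of 3 counts would be 0.0649 TPM. The mean of 5.01 TPM was smaller than its SD of 6.54 TPM (n = 4), and the coefficient of variation was 131%. Among the 8584 genes with a similar mean, 71.2% varied less, so a spread of this size was not rare at this level. Il11ra1 was above 1 TPM in mice 1 and 3. Its median of 2.88 TPM became 0.804 TPM when either of these was left out, and its mean became 1.92 TPM without mouse 1. The globin gene Hba-a1, an erythroid marker, was likewise highest in mice 1 and 3, at 1752 and 644 TPM against 7.20 and 136 TPM in mice 2 and 4. Alas2, which makes heme in erythroid cells, had 845 and 308 counts in mice 1 and 3 and 0 in mice 2 and 4. The sort left out Ter119+ cells, a gate meant to remove erythroid cells, and the part of erythroid RNA in the counts of Il11ra1 was not tested.

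The reference annotation also holds near-identical copies of Il11ra1. They are Gm13305 and Il11ra2, the latter on chromosome 4 of GRCm38 from 42656355 to 42661893, minus strand. The coding sequences of Il11ra1 and Il11ra2 are both 1299 bases long and differ at 13 of them, an identity of 99.0%. Their coding bases 1030 to 1089, counted from the A of the start codon, are shown because they hold 3 of these differences, which are in capitals and tell the genes apart.
Il11ra1: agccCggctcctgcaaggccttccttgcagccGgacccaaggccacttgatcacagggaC
Il11ra2: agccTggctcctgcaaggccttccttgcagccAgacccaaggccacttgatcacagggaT
Of the 1910 stretches of 100 bases in a coding Il11ra1 transcript of 2009 bases, 601, or 31.5%, occur letter for letter in an annotated transcript of a copy, and a single read of that length from them has no unique place. The study's methods give a read length of 100 bases. Il11ra2 and Gm13305 both had 0 counts in every library. Only uniquely mapped pairs were counted, so pairs that lie wholly in such stretches may have been left out. Whether the copies are as alike in GRCm39, on which the counts were made, was not tested.

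Il6ra, the gene of the chain that binds IL-6 (ENSMUSG00000027947; GRCm38 chromosome 3, from 89864059 to 89913196, minus strand), was not detected above the limit of 3 counts. It had 1, 0, 0 and 1 counts in mice 1 to 4, where 3 counts would be 0.0197 to 0.0336 TPM. Among the 5 receptors it was thus the only one under 3 counts in every library.

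The ligands were nearly absent from these libraries. Lif (ENSMUSG00000034394; GRCm38 chromosome 11, from 4257557 to 4272514, plus strand), Osm (ENSMUSG00000058755; the same chromosome and strand, from 4236420 to 4241026) and Il11 (ENSMUSG00000004371; chromosome 7, from 4772373 to 4782859, minus strand) had 0 counts in all 4 mice. Il6 (ENSMUSG00000025746; chromosome 5, from 30013114 to 30019981, plus strand), which stromal cells are known to make when stimulated, had 1 count in mouse 2 and 0 in the others. Clcf1 (ENSMUSG00000040663; chromosome 19, from 4214238 to 4223490, plus strand) had 3 counts in mouse 3 and 0 in the others. At these depths 3 counts of a ligand correspond to between 0.0392 TPM, for Lif in mouse 1, and 0.140 TPM, for Il11 in mouse 4. Levels below that were not detectable. This limit covers counting error only, so 0 counts do not show that a level lay below it. Such low counts are common: 3 of the 10 members had 0 counts in all 4 libraries, beside 29.4% of the protein-coding genes, and 5 of the 10 were under 3 counts in every library, beside 37.3%.

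Markers of cell types known to make these cytokines were mostly low. The macrophage and monocyte markers Adgre1, Csf1r, C1qa and Itgam had 0 counts in every mouse, and the fifth marker of the list, Cd68, gave the whole sum of 0 to 6.63 TPM. The T and B cell markers summed to 0 to 1.46 TPM, with Cd3e at 0 in every mouse. The neutrophil markers summed to between 4.09 and 30.7 TPM. Of these 5 markers, S100a8 and S100a9 were expressed, with medians of 4.07 and 3.40 TPM, beside 44.2% of the protein-coding genes. Neither was present in every mouse: S100a8 had 142, 0, 4 and 56 counts in mice 1 to 4, and S100a9 had 36, 114, 26 and 0. Elane had 261 counts in mouse 1 and 0 in the others, Mpo had at most 52 counts in a mouse and Ly6g had 0. The endothelial markers summed to between 0 and 1.12 TPM, with Cdh5 and Kdr at 0.

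By their mean log2(TPM + 1) over the mice, the order of the receptors was Lifr, Il6st, Osmr and Il11ra1, but in mouse 1 Il11ra1 came second, above Il6st and Osmr. Lifr was above Il6st in 4 of 4 mice, by 3.26 ± 0.85 on the log2(TPM + 1) scale (SD, n = 4), a ratio of TPM between 4.10 in mouse 2 and 15.6 in mouse 1. In mouse 2 Il6st was at its highest and Lifr at its lowest. Lifr exceeded Osmr in 4 of 4 mice by 4.22 ± 0.57, or 14.4 to 42.5 times. Il6st exceeded Il6ra by 3.72 ± 0.71 in 4 of 4 mice, a difference that depends on the pseudocount, since Il6ra was under the detection limit, and was 6.87 with a pseudocount of 0.1. All 3 differences were larger than their SD.

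Il6st and Osmr were nearer to each other. Il6st was higher in 4 of 4 mice, by 0.96 ± 0.71, and the ratio of TPM ran from 1.16 in mouse 1 to 3.51 in mouse 2. With the length of the longest transcript the difference shrank to 0.27 ± 0.73. Its mean kept its direction but lay within the spread between mice, so the order of these neighbours was then not clear. Osmr and Il11ra1 did not differ beyond their spread (0.93 ± 1.51, Osmr higher in 3 of 4 mice), nor did Il6st and Il11ra1 (1.88 ± 2.21, Il6st higher in 3 of 4 mice). Without mouse 2 the latter difference was 1.22. Il11ra1 was above Il6ra by 1.83 ± 1.76, in 3 of 4 mice, and this difference was 3.94 with a pseudocount of 0.1. It was within its spread without mouse 1 (1.14 ± 1.32) and without mouse 3 (1.59 ± 2.07). Without mouse 2 it was 2.16 ± 2.00, and without mouse 4 it was 2.45 ± 1.54. The signs of the within-mouse differences were flipped in all ways in an exact permutation test (two-sided). This exact test gave p = 0.125 for Il6st against Lifr, Osmr and Il6ra and for Lifr against Osmr, the smallest value that 4 mice allow, and p = 0.25 for Il6st against Il11ra1 and Il11ra1 against Il6ra. After Benjamini-Hochberg adjustment over the 9 pairs compared, these exact permutation values were 0.281 and 0.375. No pair could have passed 0.05. The 3 pairs of ligands were at or under the detection limit, and no fold is given for them.

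**Figure D2:**
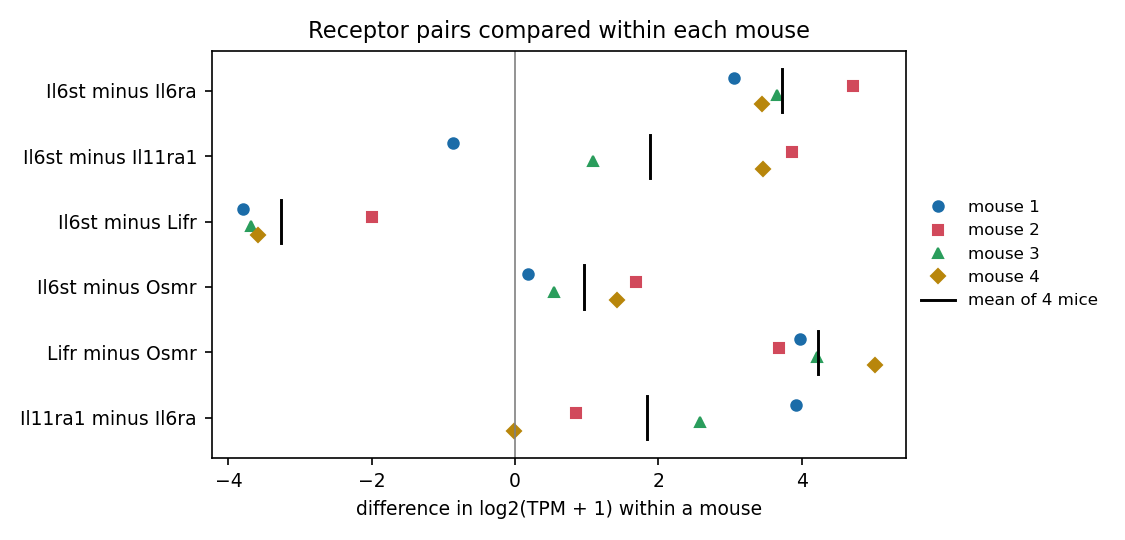
Difference in log2(TPM + 1) between 2 receptor genes within a mouse (horizontal axis) for 6 pairs (vertical axis). Each symbol is 1 mouse, the black bar is the mean of 4 mice and the grey line marks no difference. The pairs with Il11ra1 spread over the widest range, and Il6st is below Il11ra1 in mouse 1 alone. Lifr is above Il6st and Osmr in every mouse.

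Read by ligand, the chains needed for LIF (Lifr and Il6st) and for OSM (Osmr and Il6st) were each above 1 TPM together in 4 of 4 mice. The same chains as for LIF serve cardiotrophin. Both chains for IL-11 (Il11ra1 and Il6st) were above 1 TPM in 2 of 4 mice. The chains for IL-6 (Il6ra and Il6st) were above 1 TPM together in 0 of 4 mice, because of Il6ra. Soluble IL-6 receptor from other cells is known to stand in for the membrane chain, and RNA of the sorted cells does not show it. For CLCF1 and CNTF (Cntfr, Lifr and Il6st) it was 1 of 4 mice, because of Cntfr. These are statements on RNA and not on receptors at the surface.

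The other receptors of the family, a list of Cntfr, Il11ra2, Il27ra, Il31ra and Lepr, had 1 of 5 genes expressed, beside 44.2% of the protein-coding genes. This was Lepr, the leptin receptor, a relative of gp130 that marks marrow stromal cells, with 31.9, 120.2, 44.5 and 64.8 TPM in mice 1 to 4. It was above Il6st in every mouse, by 3.84 to 6.50 times, but above Lifr only in mouse 2. Cntfr, the CNTF-binding chain, had 0, 9, 0 and 100 counts in mice 1 to 4. Il31ra, which pairs with the OSM receptor to bind IL-31, was high in mouse 4 alone, with 154 counts against 0, 1 and 1 in mice 1 to 3. Il27ra, the chain that binds IL-27, had 35 counts in mouse 1, 207 in mouse 3 and 0 in mice 2 and 4. Thus Cntfr and Il27ra reached 3 counts in 2 of 4 libraries each and Il31ra in 1 of 4. The loss of rare molecules from 100 cells was not tested.

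**Figure D3:**
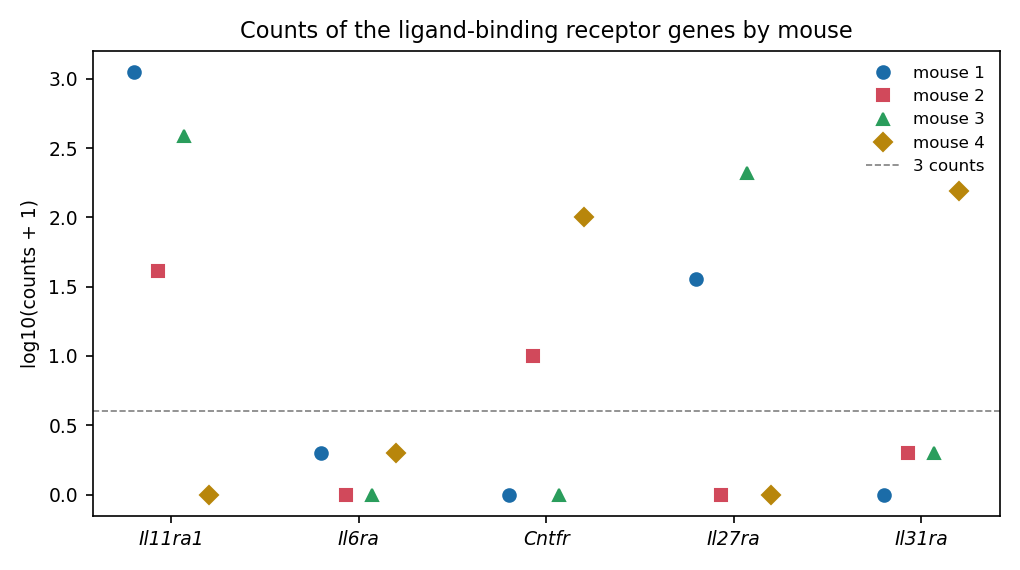
Counts of 5 ligand-binding receptor genes as log10(counts + 1) (vertical axis) in each mouse. Each symbol is 1 mouse and the dashed line marks 3 counts. Il11ra1 is high in mice 1 and 3, Cntfr and Il31ra in mouse 4, Il27ra in mouse 3, and Il6ra stays under 3 counts.

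The other ligands of the family were likewise not expressed by the cutoff, which 44.2% of the protein-coding genes passed. Il27 and Ebi3, which encode the chains of IL-27, and Il31 had 0 counts in every mouse. Ctf1, the cardiotrophin gene, had 19 counts in mouse 1 and 0 in the others. Cntf had 2 counts in mouse 1, and Ctf2 had 1 count in mouse 4.

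Downstream of the receptors, the signalling genes were present. All 11 of the listed kinases, STATs and adaptors were expressed, beside 44.2% of the protein-coding genes, 9 of them in every mouse, beside 30.1%, and the median of the list was 11.2 TPM beside 0.135 TPM for all protein-coding genes. Jak1, the kinase that gp130 depends on most, had 33.2, 43.1, 26.4 and 28.1 TPM in mice 1 to 4, above Il6st in every mouse by 1.70 to 4.51 times. Stat3, the main transcription factor of the pathway, had 12.9, 36.4, 27.3 and 24.0 TPM, with mouse 2 the highest and mouse 1 the lowest. The adaptors Shc1 and Grb2 had medians of 26.5 and 15.4 TPM. The lowest members of the list were Stat5a, with a median of 1.41 TPM and 1 count in mouse 4, and Tyk2, with 4.43 TPM.

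Among 9 negative regulators, 7 were expressed, and each of these 7 exceeded 1 TPM in all mice, beside 44.2% and 30.1% of the protein-coding genes. Socs3, the inhibitor that binds gp130 and is itself induced by STAT3, was the highest, with 141, 160.2, 433 and 74.6 TPM in mice 1 to 4. Mouse 3 had the highest level and mouse 4 the lowest. The phosphatase genes Ptpn2 and Ptpn1 had medians of 43.9 and 35.9 TPM and Socs2 one of 27.1 TPM. Cish, an inhibitor of STAT5 signalling, had 966 counts in mouse 3 and 22 in mouse 1, and Ptpn6, a phosphatase of blood cells, had 332 counts in mouse 1. Both had 0 counts in the remaining mice.

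Among 15 known STAT3 target genes, of which Socs3 also stands in the list of inhibitors, 12 were expressed, 9 of them with more than 1 TPM in each mouse, against the same 44.2% and 30.1%. The median of the list was 19.4 TPM. Fos had 1104, 1897, 2216 and 1258 TPM in mice 1 to 4, Timp1, an inhibitor of matrix proteases, 1059, 966, 1535 and 705 TPM, and Junb 360, 525, 1103 and 178 TPM. At the other end, the acute-phase genes Lcn2 and Lrg1 had at most 2 and 50 counts in a mouse. These targets respond to other signals too. The 7 genes induced by tissue dissociation (Fos, Jun, Egr1, Ier2, Atf3, Hspa1a and Zfp36) were all expressed, beside 44.2% of the protein-coding genes. They summed to 1879, 3287, 4325 and 2003 TPM in mice 1 to 4. Mouse 3 was highest and mouse 2 next in this sum, as in Socs3 and Junb. Fos, which is also among the 15 targets, had the largest part of the sum. Hspa1a went the other way, with 54.1 TPM in mouse 2 and 6.53 TPM in mouse 3. The part of dissociation in the levels of the targets was not tested.

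**Figure D4:**
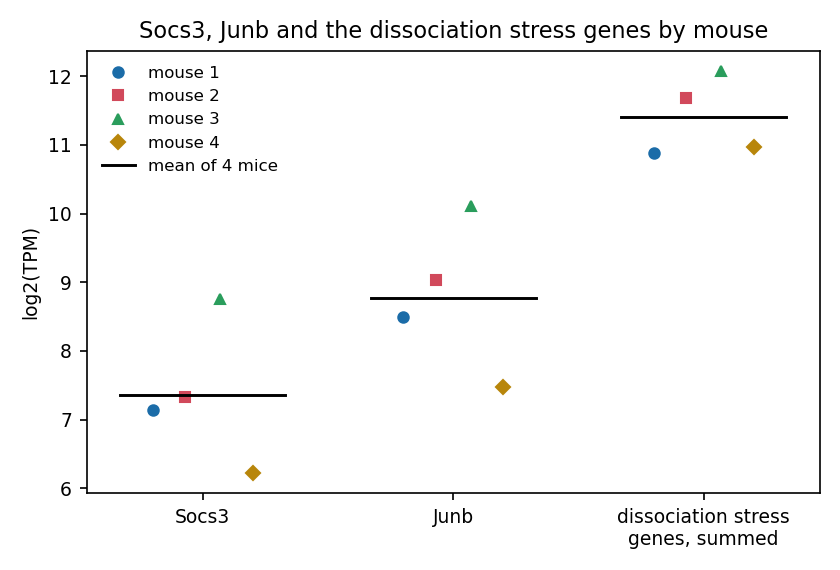
Levels in log2(TPM) (vertical axis) of Socs3, of Junb and of the summed dissociation stress genes. Each symbol is 1 mouse and the black bar is the mean of 4 mice. Mouse 3 is highest in all of them, at 433 TPM for Socs3, and mouse 4 is lowest for Socs3 and Junb while mouse 1 is lowest for the stress genes.

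**Figure D5:**
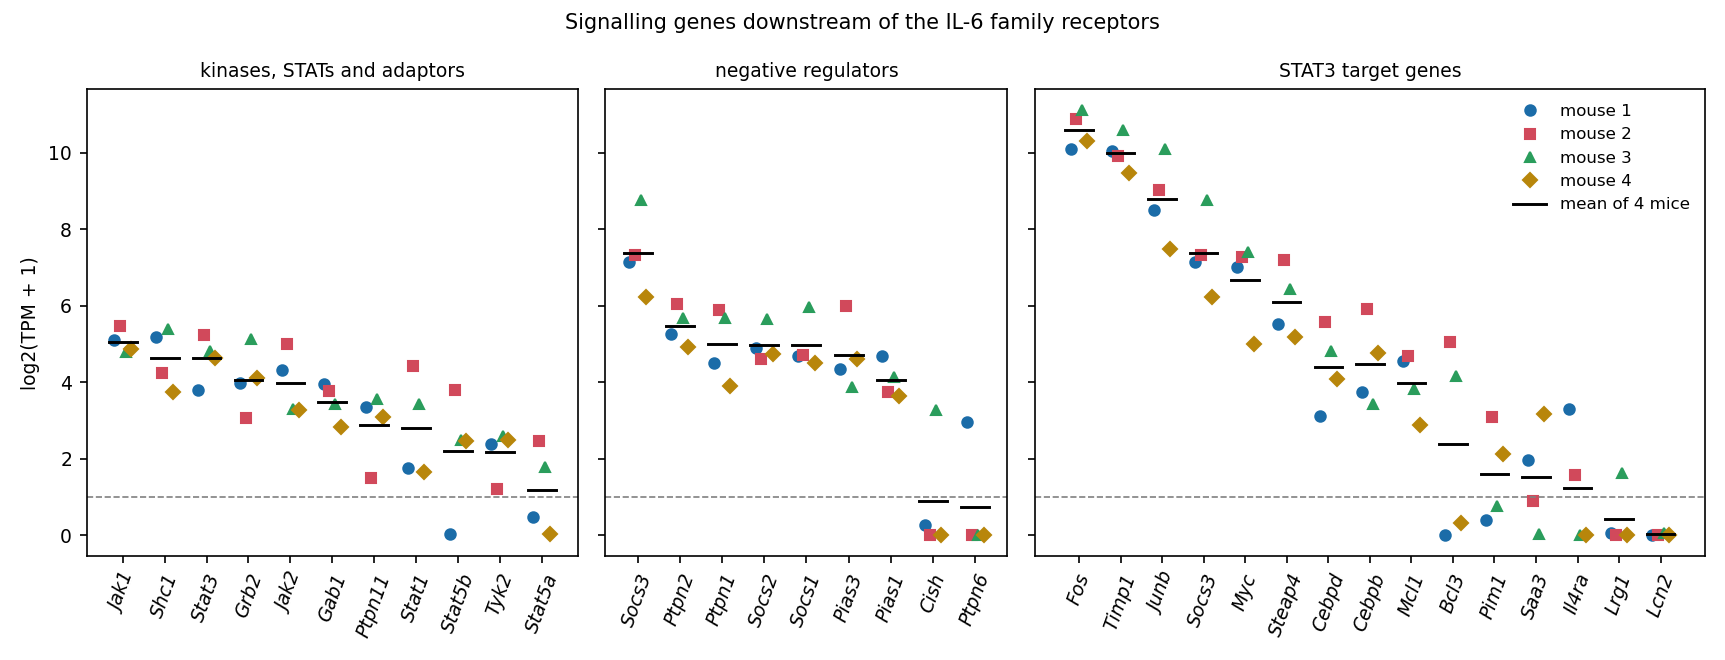
Levels in log2(TPM + 1) (vertical axis) of 11 kinases, STATs and adaptors, 9 negative regulators and 15 STAT3 target genes (horizontal axes). Each symbol is 1 mouse, the black bar is the mean of 4 mice and the dashed line marks 1 TPM. Most genes lie above the line in every mouse, and Cish, Ptpn6, Lrg1 and Lcn2 lie at or near 0 in most of them.

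The proteases that shed receptor chains from the cell surface were both expressed by their median, beside 44.2% of the protein-coding genes. Adam10 had 21.2, 28.3, 32.6 and 28.0 TPM in mice 1 to 4. Adam17, which sheds the IL-6 receptor, had 9.58, 9.29 and 9.06 TPM in mice 1, 3 and 4 but 3 counts in mouse 2, the library with the fewest detected genes.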

How the data were processed

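The authors deposited 1 table of raw counts with a column for each mouse and no normalization. According to their methods, read pairs were aligned to GRCm39 with STAR 2.7.10 and uniquely mapped pairs were counted on the exons of Ensembl genes with featureCounts (Subread 1.6.5) without a strand option. Where genes overlap, on either strand, a pair cannot be assigned to 1 of them. Clcf1 shares 8.17% of its exonic bases with AC109138.7, Il6ra 2.80% with Gm42809 and Il11ra1 0.179% with Ccl27a. The other members share none.

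The merged exon lengths of GENCODE M21 were used to turn counts into TPM (pandas 2.3.3, numpy 2.4.6 and scipy 1.17.1 under Python 3.11.15). That annotation is on GRCm38, as are all coordinates given, so a gene whose exons changed between builds has a TPM off by the ratio of its lengths. Lengths were found for 52125 of 56980 genes, 21922 of them protein-coding. The other 4855 genes were left out of the TPM. Copies were searched with BLAST 2.17.0 in the annotated transcripts, with a minimum identity of 95% and a minimum length of 100 bases. The code for TPM and the cutoff was tested on simulated data, and that for the permutation test on fixed differences with a known p.

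The members, lists and comparisons were chosen with earlier results of these data known. All members are named. Of each other list, the 4 highest and 2 lowest by median TPM and genes at 0 counts may be named, beside the markers. Socs1 is named outside this rule, among the results flagged because a single mouse lay far from the rest. With 4 libraries, no measure of likeness to a member's pattern was computed. Markers are given beside a member where the same mice were high. The receptor chains needed by each ligand were put together after the data were seen. Alternatives were another length, no length, TMM factors from edgeR 4.0.16, a protein-coding denominator, other cutoffs, summaries and pseudocounts, a minimum of 10 counts and leaving out each mouse. Some genes of the lists are not reported here.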

Additional observations from a re-analysis of the deposited data

Results flagged for a closer look

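In 17 of 61 values compared over the 4 mice (the members, the listed pathway genes and the summed markers), a single mouse lay far from the rest: its distance to the next mouse, divided by the range of all 4 (called the gap here), exceeded the 95% limit of Dixon's test. Chance alone gives about 3.05 of 61, and the test is not made for sparse counts, where a gene found in a single library always has a gap of 1. That was so for Il6 and Clcf1 among the members (gap 1 for both, from 1 and 3 counts), for Cntf, Ctf1, Ctf2, Ptpn6 and Lcn2 and for the summed megakaryocyte markers (gap 1 each).

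Further receptor chains of the family were set apart by a single library. Il31ra had 154 counts in mouse 4 (gap 0.994), Cntfr had 100 counts in mouse 4 (gap 0.916), and Il27ra had 207 counts in mouse 3 (gap 0.834). Mouse 4, in which Il31ra and Cntfr were high, had 0 counts of Il11ra1 and of Il27ra.

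Socs1 reached 62.0 TPM in mouse 3, while mice 1, 2 and 4 had 24.8, 25.2 and 21.7 TPM (gap 0.915). Cish had 966 counts in mouse 3 (gap 0.978) and Lrg1 had 50 (gap 0.980). Adam17 was lowest in mouse 2 (gap 0.946). The macrophage and monocyte markers were highest in mouse 3, where Cd68 had 144 counts (gap 0.925), and the T and B cell markers in mouse 4, where Cd79a had 22 counts (gap 0.988).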

How the results depend on the processing

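The number of expressed members was 3 or 4 under all 12 alternatives. Requiring more than 1 TPM in each mouse, a median above 5 TPM or 10 counts per mouse gave 3, as did leaving out mouse 1 or mouse 3, and the member lost was Il11ra1 each time. Lifr, Il6st and Osmr passed throughout. The means of the 6 differences between receptors kept their sign under all 10 alternatives. A kept sign does not make a difference clear. Il6st minus Il11ra1 was 1.88 ± 2.21 (SD) in the main setting. With the longest transcript as length, Il6st minus Osmr was 0.27 ± 0.73. The 3 pairs of ligands were at or near 0 and have no direction to keep. Across the fits that each left out 1 mouse, the difference of Il6st minus Lifr ran from -3.69 to -3.09 and that of Il6st minus Il11ra1 from 1.22 to 2.80, and the latter was 2.93 with a pseudocount of 0.1 and 3.50 without a length. A pseudocount of 0.1 moved Il6st minus Il6ra from 3.72 to 6.87. With 4 mice no setting could bring a p under 0.125, so the test shows no stability. The number of all genes past the cutoff, 11948, was 7666 with a cutoff of 5 TPM, and that of the shedding proteases fell from 2 to 1 when every mouse had to pass, since Adam17 was lost. The mean of Osmr moved beyond its SD with another length, and those of Lifr, Il6st, Osmr and Il6ra did so without a length, which is another unit. The coefficient of variation between mice exceeded that from counting error alone for Lifr, Il6st, Osmr and Il11ra1. It did not for Il6 (200% for both) and Il6ra (123% against 141%). For Clcf1 it was 200% against 115%. Lif, Osm and Il11 had 0 counts and so no spread to compare. Whether the loss of rare molecules before sequencing limits the ligands and Il6ra was not tested.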
